A study of Mus musculus with 8 samples.

Results

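The 9 genes described here, Tbx1, Tbx2, Tbx3, Tbx4, Tbx5, Tbx15, Tbx18, Tbx20 and Eomes, encode T-box transcription factors. They form a set kept apart from a list of primitive streak factors, although Eomes also acts in early mesoderm and endoderm. They were taken by gene name from the 32567 genes of an RNA-seq count table, and all 9 were found once. RNA had been sequenced from mouse embryonic stem cells (ESC) and from cells differentiated from them as embryoid bodies with retinoic acid (RA-DIFF), each from 1 wild-type line and 1 line that carries the Hdh ex4/5 null allele on both copies of Htt, the mouse orthologue of the Huntington's disease gene (Htt-null). The ESC were grown with leukaemia inhibitory factor and passaged without feeder cells before collection, while the RA-DIFF cells came from embryoid bodies that were given retinoic acid during the later days of culture, dissociated and plated briefly. Each of the 4 conditions was 1 library from 1 line, with 63617410 to 110569127 counts, so the conditions have no replicates and no p-value between them is given. The intervals given below are 95% intervals of counting error only and do not cover the spread between cultures.

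T-box factors share a DNA-binding domain, the T-box, and act as activators or repressors of transcription in the patterning of the embryo. The family falls into subfamilies by sequence: Tbx2, Tbx3, Tbx4 and Tbx5 belong to one, Tbx1, Tbx15, Tbx18 and Tbx20 to another, and Eomes stands with Tbr1 and Tbx21. In the embryo these genes are known for roles in the heart, the limbs, the pharyngeal arches and the mesenchyme of the body wall and organs. Tbx3 is also part of the network of factors that keeps ESC pluripotent, and Eomes acts in the early embryo and later in neuronal progenitors of the cortex.

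Before the comparisons, the genotype labels were examined with Htt itself. In ESC, Htt stood at 165.9 CPM (library-scaled counts, with the TMM factors of edgeR) in wild-type and 111.3 CPM in Htt-null cells, a log2 ratio of -0.58. Between the RA-DIFF libraries Htt went the other way, from 73.3 CPM in the library labelled wild type to 98.7 CPM in the one labelled Htt-null, a log2 ratio of 0.43. Counts over the whole gene do not single out the deleted exons. In addition, the supplementary per-condition values of the study match the deposited RA-DIFF column of the opposite label, while its ESC values match the columns of the same label. Over 1344 genes, the standard deviation of the log2 CPM difference was 0.00309 and 0.0031 for the RA-DIFF columns of opposite label. It was 0.703 for those of the same label. The RA-DIFF libraries are therefore called by their labels throughout, and every direction between them would turn if the labels were exchanged. As printed here, directions between the RA-DIFF libraries are the reverse of those that the study's supplementary values give. Marker genes went with the stage labels. In both lines RA-DIFF cells had lower levels of 8 of 8 pluripotency markers and higher levels of 6 of 6 neural progenitor markers. Of the 15492 expressed genes, defined below, 26.2% and 24.9% were lower and 34.0% and 34.4% higher in cells labelled wild type and Htt-null. Mesenchyme markers were also higher, 10 of 11 and 11 of 11, with 0 lower. Neuronal markers were higher in 7 of 8 and 6 of 8, with 0 and 1 lower.

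Promoter sequences from RefSeq (GRCm38.p6), 250 bases before to 50 bases after a transcription start, were held for 5 of the 9 genes as 6 entries: Tbx1 (2 entries), Tbx4, Tbx18, Tbx20 and Eomes. Those of Tbx18 and Eomes are printed because these genes, both on chromosome 9, had opposite orders of level in RA-DIFF. CpG dinucleotides are in capitals, and each sequence runs from the 5′ to the 3′ side of its gene. The Tbx18 window is chr9:87731211-87731510 on the minus strand, and the Eomes window is chr9:118477939-118478238 on the plus strand.
Tbx18: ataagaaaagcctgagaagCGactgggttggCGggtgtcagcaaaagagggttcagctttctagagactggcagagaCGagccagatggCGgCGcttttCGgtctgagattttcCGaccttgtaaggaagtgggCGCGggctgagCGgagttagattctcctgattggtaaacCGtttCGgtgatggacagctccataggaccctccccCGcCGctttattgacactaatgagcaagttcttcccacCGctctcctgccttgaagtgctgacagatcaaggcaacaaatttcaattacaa
Eomes: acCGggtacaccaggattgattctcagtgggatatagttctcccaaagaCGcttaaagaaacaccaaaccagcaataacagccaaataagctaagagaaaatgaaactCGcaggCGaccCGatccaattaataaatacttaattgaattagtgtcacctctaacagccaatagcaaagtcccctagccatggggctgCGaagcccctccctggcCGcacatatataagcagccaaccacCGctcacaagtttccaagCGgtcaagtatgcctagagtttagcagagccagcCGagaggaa
The Tbx18 window held 15 CpG and the Eomes window 10, against a median of 7 over 32851 promoters of the same length. The windows of Tbx20 and of one Tbx1 start held 26 CpG each, more than 83.1% of all promoters, although these genes were among the lowest of the 9 in level. The other Tbx1 window held 16 and the Tbx4 window 8. The core T-box binding motif (GGTGTGA, or TCACACC on the other strand) was in 0 of the 6 windows and in 3.98% of all promoters. The core motif bound by retinoic acid receptors (AGGTCA, or TGACCT) was likewise in 0 of the 6 windows and in 16.3% of all promoters.

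The 9 genes fell into a well-expressed and a barely expressed group. Of the 9, 6 passed the expression limit of the study's methods, as did 15492 genes of the table. That limit was an average log2 CPM of edgeR above 0, which is close to the log2 of the CPM averaged over the 4 libraries. A gene high in only some libraries can pass it, as Tbx4 did with 3.77 and 4.43 CPM in ESC and 0.0714 and 0.0305 CPM in RA-DIFF. Tbx1, Tbx5 and Tbx20 did not pass it and stayed below 1 CPM in all 4 libraries. Summed over the 9 genes, the level was 141.0 CPM in wild-type ESC, 102.0 CPM in Htt-null ESC, 37.3 CPM in RA-DIFF labelled wild type and 56.7 CPM in RA-DIFF labelled Htt-null. These are bulk libraries, in which fewer cells of a type and less RNA per cell cannot be told apart.

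**Figure D1:**
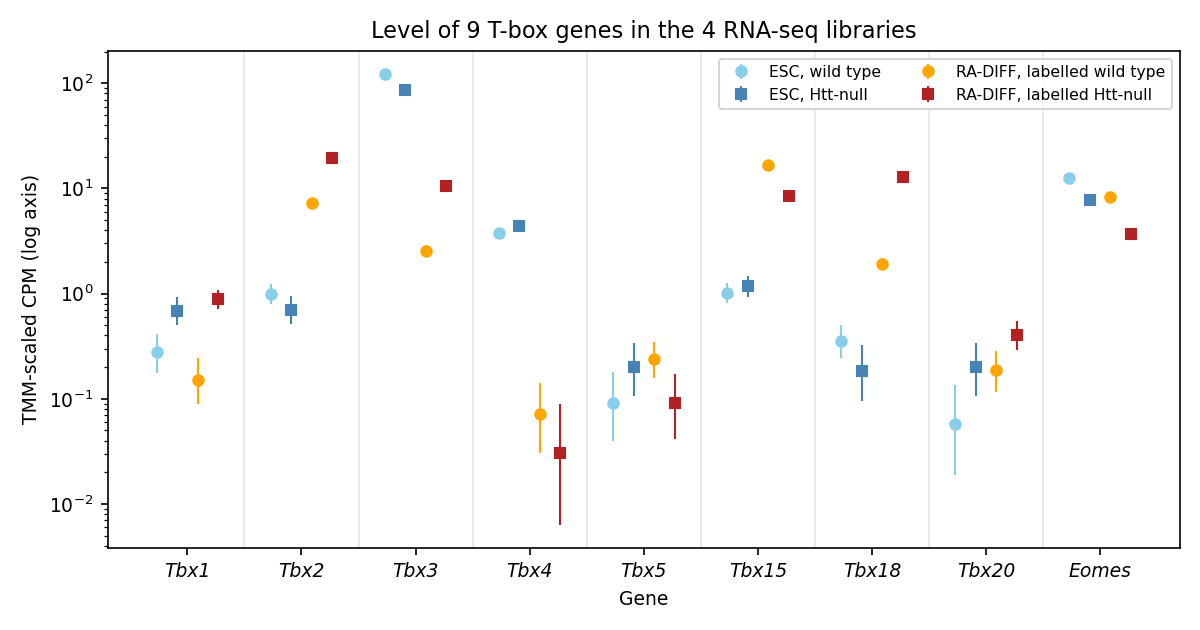
TMM-scaled CPM of each gene on a log axis in the 4 libraries (1 point per library, bars are 95% Poisson counting intervals). Tbx3 spans 2.56 to 122 CPM with its highest values in ESC, Tbx2, Tbx15 and Tbx18 have their highest values in RA-DIFF, and Tbx1, Tbx5 and Tbx20 stay below 1 CPM.

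The make-up of the set by exon length differed between ESC and RA-DIFF. Per kilobase of exon, Tbx3 took 79.1% of the summed level of the 9 genes in wild-type ESC and 76.8% in Htt-null ESC, followed by Eomes with 13.1% and 10.9%. In RA-DIFF labelled wild type, Tbx15 came first with 47.6%, then Tbx2 with 21.3% and Eomes with 21.1%. In RA-DIFF labelled Htt-null, Tbx2 came first with 41.0%, followed by Tbx18 with 20.7%, Tbx15 with 17.2% and Tbx3 with 12.1%. Both ESC libraries had Tbx3, Eomes and Tbx4 in the first 3 places, and the RA-DIFF libraries had different leading genes.

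**Figure D2:**
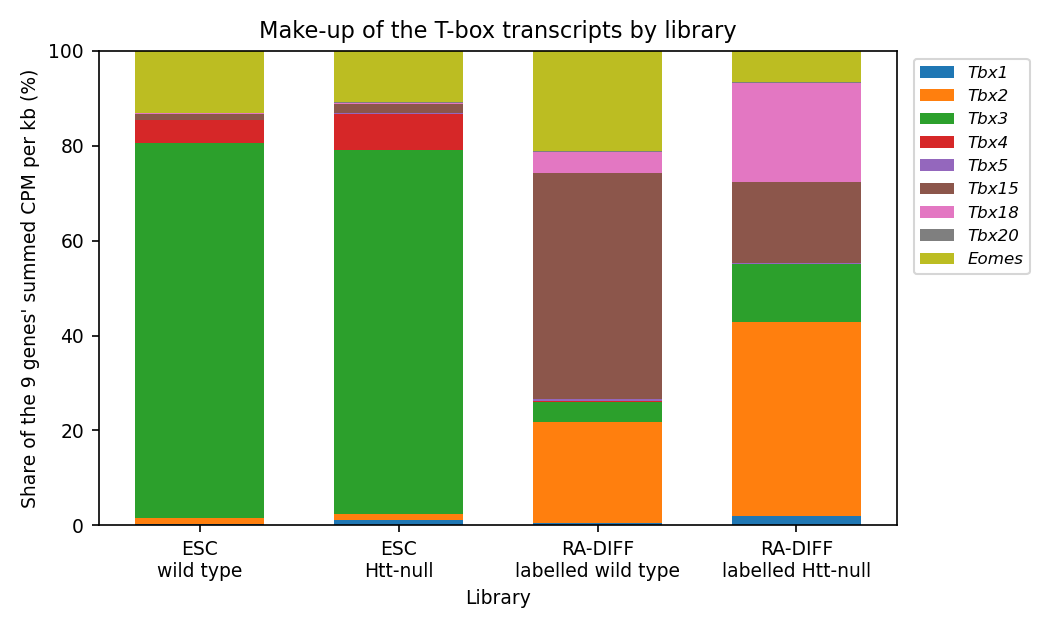
Share of each gene in the summed CPM per kilobase of exon of the 9 genes, in percent, as 1 stacked bar per library. Tbx3 fills 79.1% and 76.8% of the ESC bars, while Tbx15 (47.6%) and Tbx2 (41.0%) are the largest parts of the RA-DIFF bars labelled wild type and Htt-null.

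The first question of the design is how the cells changed from ESC to RA-DIFF. A gene was counted as past the limits where its log2 ratio was beyond 0.75 in either direction and it passed the expression limit. Only the 6 expressed members could be counted. In cells labelled wild type, 3 of these 6 were higher in RA-DIFF (Tbx2, Tbx15 and Tbx18) and 2 were lower (Tbx3 and Tbx4), against 34.0% and 26.2% of the 15492 expressed genes. In cells labelled Htt-null, the higher genes were the same 3, and 3 were lower (Tbx3, Tbx4 and Eomes), against 34.4% and 24.9% of expressed genes. The call of Eomes was lost, leaving 2 lower, with the exact test of edgeR at an assumed dispersion of 0.1. Since the pairing of RA-DIFF with ESC rests on the doubtful labels, each RA-DIFF library was also set against each ESC library. In all 4 pairings, Tbx2, Tbx15 and Tbx18 were higher and Tbx3 and Tbx4 lower, which was the case for 27.5% and 20.1% of expressed genes. The shares among the 6 members are those of a small set in a comparison that separates much of the transcriptome, and the median log2 ratio of the 6 expressed members was 0.90 in cells labelled wild type and 0.89 in cells labelled Htt-null, against 0.12 and 0.17 over all expressed genes. With the 3 barely expressed members included, the medians of the 9 were 1.37, the value of Tbx5, and 0.36, the value of Tbx1.

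The second question is how Htt-null cells differed from wild-type cells. In ESC, 0 of the 6 expressed members were higher and 1 was lower (Tbx18), against 5.44% and 3.76% of expressed genes. In RA-DIFF labelled Htt-null, 3 were higher (Tbx2, Tbx3 and Tbx18) and 3 were lower (Tbx4, Tbx15 and Eomes), against 11.9% and 9.31% of expressed genes. All 6 expressed members were past the fold limit between the RA-DIFF libraries by the fold rule alone. With the exact test of edgeR at an assumed dispersion of 0.1, the 3 higher members kept their calls and 0 of the 3 lower ones did. At a dispersion of 0.01, Tbx15 and Eomes also kept theirs, and with a fold limit of 1 in place of 0.75 the call of Tbx15 was lost, leaving 2 lower. The call of Tbx4 there rested on 3 against 8 counts, and that of Tbx18 in ESC on 12 against 31 counts, and their counting intervals both included 0. The median log2 ratio of the 6 expressed members was -0.49 in ESC and 0.23 in RA-DIFF, against -0.04 and -0.01 over all expressed genes. Over all 9 genes it was 0.22 and 1.11, the latter being the value of Tbx20, which had 40 against 21 counts. Counts over the gene lists below are read against these same shares of expressed genes, and a listed gene below the expression limit could not be counted. The comparisons share libraries, each of the 4 entering 2 of them, and are not independent of each other.

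**Figure D3:**
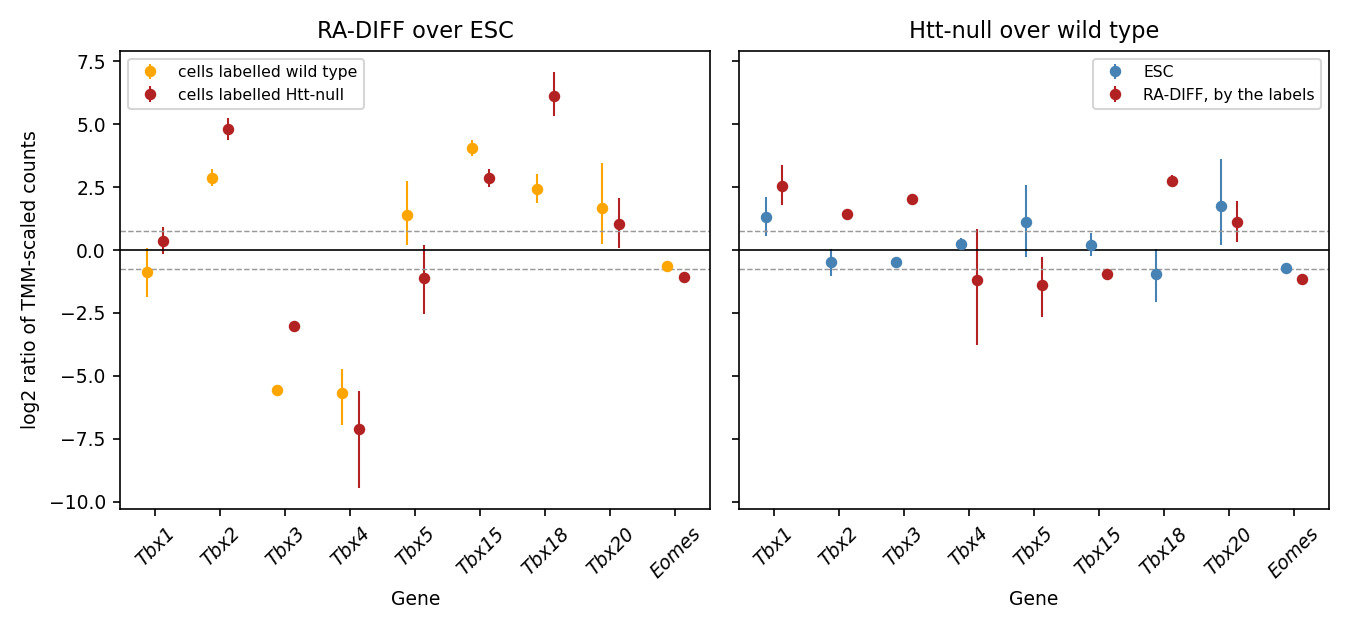
Log2 ratio of TMM-scaled counts for each gene, RA-DIFF over ESC in the left panel and Htt-null over wild type in the right (points, 1 library against 1 library, bars are 95% counting intervals, dashed lines the limits of 0.75 and -0.75). Tbx2, Tbx15, Tbx18 and Tbx20 lie above the upper line and Tbx3 and Tbx4 below the lower line for both lines in the left panel, and Tbx1, Tbx2, Tbx3, Tbx18 and Tbx20 lie above the upper line in RA-DIFF in the right panel. Tbx20 rests on 5 to 40 counts, and its lowest ratio over the 4 pairings of RA-DIFF with ESC was -0.0881.

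Tbx2 and Tbx3 encode closely related repressors that are known to hold back cell cycle inhibitors such as Cdkn2a. Tbx2 (chromosome 11, 85832551 to 85841948, plus strand) had 86 counts in wild-type ESC, 46 in Htt-null ESC, 811 in RA-DIFF labelled wild type and 1935 in RA-DIFF labelled Htt-null, or 0.992, 0.705, 7.24 and 19.7 CPM. The RA-DIFF libraries both lay above both ESC libraries, by log2 ratios of 2.87 to 4.80 over the 4 pairings. Within RA-DIFF, Tbx2 was 2.72-fold higher in the one labelled Htt-null (log2 ratio 1.44, interval 1.32 to 1.56). In ESC the log2 ratio of -0.49 had an interval of -1.04 to 0.04, so a difference was not resolved by the counts.

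Tbx3 (chromosome 5, 119670669 to 119684724, plus strand) had 10566 counts in wild-type ESC, 5656 in Htt-null ESC, 287 in RA-DIFF labelled wild type and 1041 in RA-DIFF labelled Htt-null, or 122, 86.7, 2.56 and 10.6 CPM. It was the most abundant of the 9 genes in ESC per kilobase of exon (18.4 CPM per kb in wild-type cells), and stood lower after differentiation by log2 ratios of -5.57 to -3.04 over the 4 pairings. The 4 levels were separate by their counting intervals. Between the RA-DIFF libraries Tbx3 was 4.13-fold higher in the one labelled Htt-null (log2 ratio 2.04, interval 1.86 to 2.24), whereas in ESC it was lower in Htt-null cells by a log2 ratio of -0.49 (interval -0.54 to -0.44), which did not reach the fold limit. Thus the sister genes Tbx2 and Tbx3 had opposite orders between ESC and RA-DIFF and the same order between the RA-DIFF libraries.

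Among 10 genes listed for growth control and naive pluripotency, processes in which Tbx2 and Tbx3 act, all of them expressed above the limit, 8 were lower and 0 higher after differentiation in cells labelled wild type, and 7 lower and 1 higher in cells labelled Htt-null. The naive factors Esrrb and Nanog had log2 ratios of -6.32 and -6.31 in cells labelled wild type, beside -5.57 for Tbx3. Between the RA-DIFF libraries, 2 of the 10 were higher and 3 lower in the one labelled Htt-null. Cdkn2a, an inhibitor of cell cycle entry, was at 18.5 CPM there against 6.63 CPM (log2 ratio 1.48), and so stood higher in the library with more Tbx2 and Tbx3, while Esrrb and Nanog were lower (log2 ratios -2.68 and -2.20). In ESC, 0 were higher and 1 was lower, Gata6, with a log2 ratio of -0.75.

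Tbx15 and Tbx18, relatives that act in mesenchyme of the skeleton, the body wall and, for Tbx18, the sinus node, ureter and epicardium, were low in ESC. Tbx18 (chromosome 9, 87702800 to 87731260, minus strand) had 31 counts in wild-type ESC, 12 in Htt-null ESC, 215 in RA-DIFF labelled wild type and 1273 in RA-DIFF labelled Htt-null, or 0.358, 0.184, 1.92 and 12.9 CPM. The highest level was in RA-DIFF labelled Htt-null, 6.74-fold above the library labelled wild type (log2 ratio 2.75, interval 2.54 to 2.97). Over the 4 pairings, RA-DIFF lay above ESC by log2 ratios of 2.42 to 6.12. In ESC it was lower in the Htt-null line by a log2 ratio of -0.95, with an interval of -2.05 to 0.04.

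Tbx15 (chromosome 3, 99240381 to 99354259, plus strand) had 88 counts in wild-type ESC, 77 in Htt-null ESC, 1870 in RA-DIFF labelled wild type and 837 in RA-DIFF labelled Htt-null, or 1.02, 1.18, 16.7 and 8.50 CPM. Both RA-DIFF libraries lay above both ESC libraries, by log2 ratios of 2.85 to 4.04, but here the library labelled Htt-null was the lower one, 1.96-fold below that labelled wild type (log2 ratio -0.97, interval -1.09 to -0.86). The ESC libraries did not differ beyond counting error (log2 ratio 0.22, interval -0.24 to 0.68). Tbx15 and Tbx18 therefore shared their order between ESC and RA-DIFF and had opposite orders between the RA-DIFF libraries.

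Markers of mesenchyme had the order of Tbx18 between the RA-DIFF libraries. The summed level of 11 mesenchyme markers was 51.1 CPM in wild-type ESC, 37.5 CPM in Htt-null ESC, 625 CPM in RA-DIFF labelled wild type and 2447 CPM in RA-DIFF labelled Htt-null. Between the RA-DIFF libraries 10 of the 11 were higher in the one labelled Htt-null and 0 were lower (median log2 ratio 2.04), the smooth muscle genes Acta2 (3.95) and Tagln (3.71) being furthest apart. None of the 11 was at 0 in RA-DIFF. The log2 ratios of Tbx18 (2.75), Tbx3 (2.04) and Tbx2 (1.44) lay in the range of these markers, and that of Tbx15 lay outside it. In ESC, 6 of the 11 were lower in Htt-null cells, all with counting intervals that excluded 0, among them Dcn with 0 against 10 counts. The 1 counted as higher was Lum, with 1 against 0 counts. The 8 neuronal markers went the other way in RA-DIFF, with a summed level of 2608 CPM in the library labelled wild type and 1174 CPM in that labelled Htt-null, 7 of 8 lower and 0 higher. The part of such cell types in the levels of the T-box genes was not tested.

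Genes that act with these factors in the limb and lateral plate gave a mixed picture. Of 12 such genes, 8 passed the expression limit. Of these 8, 7 were higher and 1 lower after differentiation in cells labelled wild type (34.0% and 26.2% of all expressed genes), and 6 higher and 0 lower in cells labelled Htt-null (34.4% and 24.9%). Between the RA-DIFF libraries 5 of the 8 were higher and 2 lower in the one labelled Htt-null, against 11.9% and 9.31% of all expressed genes. Prrx1, a homeobox gene of limb mesenchyme, was at 84.4 CPM against 29.1 CPM (log2 ratio 1.54) and Osr1 at 3.97 against 0.509 CPM (log2 ratio 2.96), in the direction of Tbx18. Shox2, which acts in the limb and the sinus node, was at 5.01 against 18.3 CPM (log2 ratio -1.87) and Msx2 at 0.762 against 2.96 CPM (log2 ratio -1.96), in the direction of Tbx15. In ESC, 2 of the 8 were higher and 2 lower (Prrx1 and Prrx2) in Htt-null cells. The higher ones were Msx2, with 30 against 18 counts, and Osr1, with 3 against 0, which is at the limit of detection.

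Of 7 genes of the epicardium, the outer layer of the heart in which Tbx18 is used as a marker, 4 passed the expression limit, and 3 of these 4 were higher and 0 lower in RA-DIFF labelled Htt-null than in RA-DIFF labelled wild type. The 3 were Sema3d, at 4.85 against 2.02 CPM (log2 ratio 1.27), Krt19, at 1.59 against 0.937 CPM (log2 ratio 0.77), and Wt1, at 0.680 against 0.348 CPM. Bnc1 had 292 against 35 counts (log2 ratio 3.24), the widest difference among the list's genes with at least 100 counts, but did not pass the expression limit. Against ESC, 1 was higher and 2 lower in cells labelled wild type, and 2 higher and 1 lower in cells labelled Htt-null. In ESC, 0 were higher and 1 was lower in Htt-null cells, Sema3d with 4 against 16 counts and an interval that included 0.

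**Figure D4:**
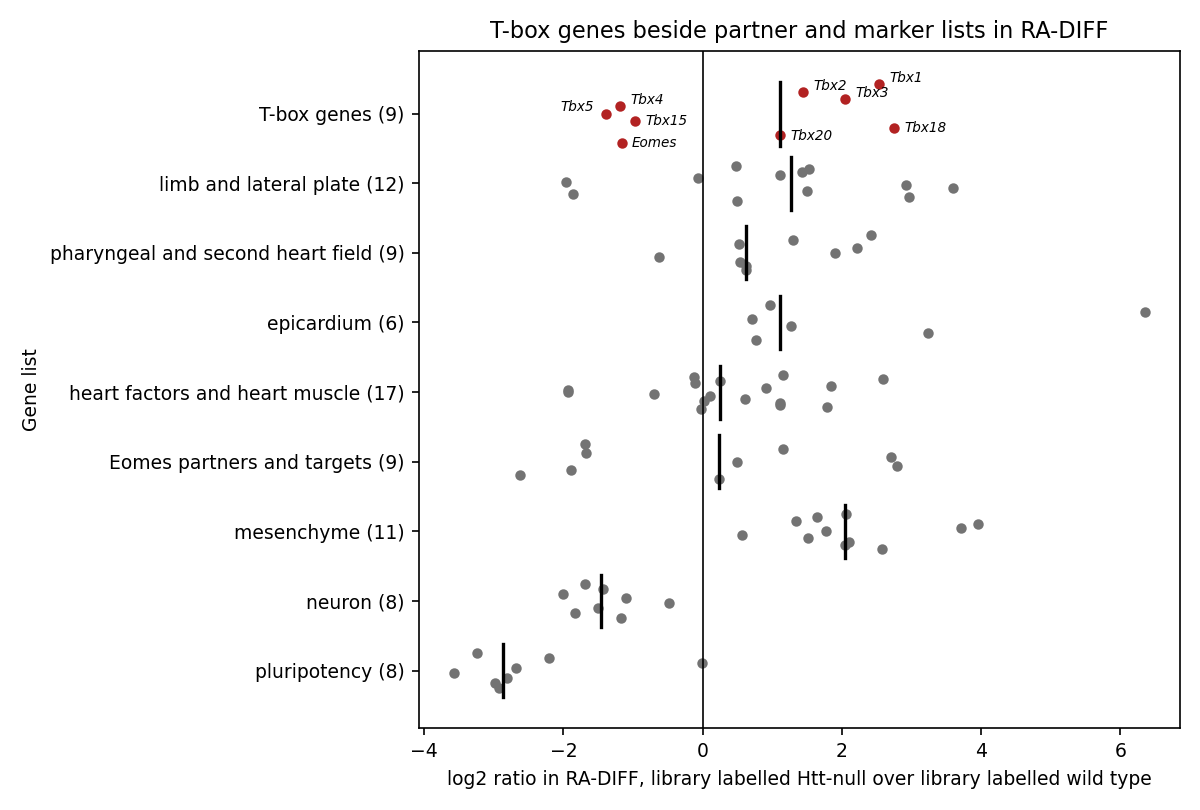
Log2 ratio in RA-DIFF, library labelled Htt-null over library labelled wild type, for the 9 T-box genes and for genes of 8 lists with more than 3 counts in either library (points are genes, number in brackets, black lines are medians). The T-box genes lie on both sides of 0, while the mesenchyme list has its median at 2.04, the neuron list at -1.46 and the pluripotency list at -2.87.

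Tbx1, Tbx5 and Tbx20, factors best known from the heart and, for Tbx1, the pharyngeal arches, stayed below the expression limit, with 5 to 87 counts. Tbx1 (chromosome 16, 18581713 to 18586969, minus strand) had 24, 45, 17 and 87 counts in wild-type ESC, Htt-null ESC, RA-DIFF labelled wild type and RA-DIFF labelled Htt-null, or 0.277, 0.690, 0.152 and 0.884 CPM. It was higher in the Htt-null library in ESC (log2 ratio 1.31, interval 0.57 to 2.10) and in the library so labelled in RA-DIFF (log2 ratio 2.53, interval 1.78 to 3.39), beyond the fold limit but below the expression limit. The deposited span of Tbx1 starts 3702 bp short of its start in GENCODE vM21, and both RefSeq starts lie outside it, so its count may leave out the first exons.

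Tbx20 (chromosome 9, 24720812 to 24774303, minus strand) had 5, 13, 21 and 40 counts in the same order of libraries, or 0.0577, 0.199, 0.187 and 0.406 CPM. Its log2 ratios of Htt-null over wild type were 1.77 in ESC (interval 0.21 to 3.63) and 1.11 in RA-DIFF (interval 0.32 to 1.95). By the counting intervals of the levels, wild-type ESC lay below RA-DIFF labelled Htt-null and RA-DIFF labelled wild type lay below RA-DIFF labelled Htt-null, while the other 4 pairs of libraries overlapped. Tbx5 (chromosome 5, 119832668 to 119885219, plus strand) had 8, 13, 27 and 9 counts, or 0.0923, 0.199, 0.241 and 0.0914 CPM. The log2 ratio between the RA-DIFF libraries was -1.39 (interval -2.67 to -0.27) and that in ESC was 1.10 (interval -0.27 to 2.59), so that Tbx5 was highest in RA-DIFF labelled wild type, but on 27 counts.

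The 7 cardiomyocyte markers summed to 10.9 CPM in wild-type ESC, 18.5 CPM in Htt-null ESC, 3.90 CPM in RA-DIFF labelled wild type and 5.05 CPM in RA-DIFF labelled Htt-null, and none of them was at 0. Of the 7, 4 passed the expression limit. In ESC, 3 of these 4 were higher in Htt-null cells and 0 lower, with Myh7 at 1.70 against 0.749 CPM. Within RA-DIFF 0 of the 4 were past the fold limit, against 11.9% higher and 9.31% lower among all expressed genes. The 6 of the 7 with more than 3 counts in either RA-DIFF library all had log2 ratios above 0 (median 0.36), among them Nkx2-5 (1.16, 10 against 5 counts) and Tnnt2 (1.11, 21 against 11), which were below the expression limit. Of 20 heart factors and heart muscle genes, 10 passed the expression limit, and 4 of these 10 were higher and 0 lower in RA-DIFF labelled Htt-null than labelled wild type. These included Isl1, a factor of cardiac and motor neuron progenitors, at 12.4 against 3.45 CPM (log2 ratio 1.84), and Gja5, a gap junction gene, at 4.78 against 1.38 CPM. In ESC, 5 of the 10 were higher and 1 lower, but Mef2c had 4 against 1 counts there, Actc1 11 against 1 and Gja5 10 against 4. With the counting interval also required to exclude 0, 3 were higher (Myh7, Myl7 and Actc1) and 1 was lower (Gata6). Against ESC, 6 were higher and 3 lower in cells labelled wild type, and 5 higher and 4 lower in cells labelled Htt-null.

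Of 10 pharyngeal and second heart field genes, which act with Tbx1, 9 were in the table and 8 passed the expression limit, and 3 of these 8 were higher and 0 lower in RA-DIFF labelled Htt-null than labelled wild type. Eya1, a transcriptional coactivator, was at 21.7 against 8.86 CPM (log2 ratio 1.29), and Foxc2, which acts upstream of Tbx1 in the arches, at 2.83 against 0.607 CPM (log2 ratio 2.22). In ESC, 2 were higher (Eya1 and Foxc2) and 0 lower, and against ESC 3 were higher and 2 lower in cells labelled wild type, and 4 higher and 2 lower in cells labelled Htt-null.

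Tbx4, the factor of hindlimb and lung mesenchyme, had the opposite course to its neighbour Tbx2. Tbx4 (chromosome 11, 85886422 to 85916097, plus strand) had 327 counts in wild-type ESC, 289 in Htt-null ESC, 8 in RA-DIFF labelled wild type and 3 in RA-DIFF labelled Htt-null, or 3.77, 4.43, 0.0714 and 0.0305 CPM. RA-DIFF lay below ESC by log2 ratios of -7.12 to -5.70 over the 4 pairings. The value in RA-DIFF labelled Htt-null was at 3 counts, the number taken as the limit of detection. The ESC libraries differed by a log2 ratio of 0.23 (interval -0.0007 to 0.47). Over the 1223 expressed genes of chromosome 11, the ESC of both genotypes differed by a median log2 ratio of 0.22, higher in Htt-null cells, against -0.09 to -0.06 for the other chromosomes that carry members. Between the RA-DIFF libraries, by the labels, the chromosome 11 median was 0.0149, against 0.004 to 0.0586 for those other chromosomes.

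Tbx2 and Tbx4 lie 44473 bp apart, with 1 annotated gene between them, and Tbx3 and Tbx5 lie 147943 bp apart, with 2. In neither pair did the genes share their order of levels: Tbx2 was high where Tbx4 was low, and Tbx5 stayed at or below 0.241 CPM in libraries in which Tbx3 ranged from 2.56 to 122 CPM.

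Eomes, which in the early embryo acts in trophoblast, mesoderm and endoderm and later in neuronal progenitors, varied least among the expressed members. Eomes (chromosome 9, 118478212 to 118486132, plus strand) had 1094 counts in wild-type ESC, 502 in Htt-null ESC, 920 in RA-DIFF labelled wild type and 361 in RA-DIFF labelled Htt-null, or 12.6, 7.70, 8.21 and 3.67 CPM. Its whole range was a log2 ratio of 1.78, smaller than that of the other 5 expressed genes, and the levels in Htt-null ESC and RA-DIFF labelled wild type differed by 0.09. Htt-null ESC were below wild-type ESC by a log2 ratio of -0.71 (interval -0.87 to -0.56), just inside the fold limit, and RA-DIFF labelled Htt-null was below that labelled wild type by -1.16 (interval -1.34 to -0.99).

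Lists of the cell types that use Eomes differed in direction. Of 10 partners and targets of Eomes in mesoderm and endoderm, 6 passed the expression limit. Of these 6, 1 was higher and 3 were lower in RA-DIFF labelled Htt-null than labelled wild type, and in ESC 1 was higher, Lhx1 with 15 against 11 counts and an interval that included 0, and 0 were lower. Foxa2, a factor of endoderm and floor plate, was at 12.3 against 1.88 CPM (log2 ratio 2.70), opposite to Eomes, while Lhx1 was at 9.65 against 30.7 CPM (log2 ratio -1.67) and the Nodal pathway gene Foxh1 at 0.254 against 1.57 CPM (log2 ratio -2.62). Against ESC, 2 were higher and 3 lower in cells labelled wild type, and 2 higher and 2 lower in cells labelled Htt-null. The 5 trophoblast markers summed to 10.5 and 7.17 CPM in RA-DIFF labelled wild type and Htt-null and to 52.4 and 60.3 CPM in wild-type and Htt-null ESC. Only 2 of the 5 passed the expression limit, Tfap2c and Krt8, and these made up most of each sum. Between the RA-DIFF libraries, Tfap2c was lower in the one labelled Htt-null (3.38 against 7.01 CPM) and Krt8 was higher (3.50 against 2.69 CPM). The 6 endoderm markers summed to 4.19 and 16.2 CPM in RA-DIFF and to 4.14 and 3.11 CPM in ESC, but without Foxa2 the sums in RA-DIFF were 2.30 and 3.88 CPM. The 4 T cell markers, a lineage in which Eomes also acts, summed to 0.357 and 0.142 CPM in RA-DIFF and to 3.37 and 2.24 CPM in ESC.

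Pluripotency markers also differed between the RA-DIFF libraries in the direction of Eomes and Tbx15. Tbx4 and Tbx5 had log2 ratios of the same sign, but on 3 against 8 and 9 against 27 counts, and the interval of Tbx4 included 0. Of 8 markers, 7 were lower in RA-DIFF labelled Htt-null, the median log2 ratio being -2.87, and Pou5f1 was at 1.25 CPM there against 11.8 CPM in that labelled wild type and 757 CPM in wild-type ESC. Tbx3, though highest in ESC, was higher in the RA-DIFF library with less Pou5f1. Of 6 neural progenitor markers, 1 was higher and 3 were lower in RA-DIFF labelled Htt-null, and of 6 endothelial markers, 5 of them past the expression limit, 3 were higher and 1 lower, with summed levels of 88.6 against 23.9 CPM. The part of these differences in the levels of the T-box genes was not tested.

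The nearest relative of Eomes, Tbr1, had the same order between the RA-DIFF libraries. Tbr1, a factor of cortical neurons, had 3 counts in wild-type ESC, 7 in Htt-null ESC, 1851 in RA-DIFF labelled wild type and 317 in RA-DIFF labelled Htt-null (log2 ratio between the last 2 of -2.36, interval -2.54 to -2.19). Tbx21, the third of that subfamily, had 55, 77, 13 and 6 counts. The primitive streak gene T had 32, 19, 68 and 1172 counts in the same order of libraries, and was 19.6-fold higher in RA-DIFF labelled Htt-null than labelled wild type (log2 ratio 4.29). Tbx6 had 162, 97, 137 and 65 counts, a log2 ratio of -0.89 between the RA-DIFF libraries. Tbx10, Tbx19 and Tbx22 had at most 19 counts in any library. Mga, which carries a T-box and partners with Max, was the most abundant gene of the family, with 908 CPM in wild-type ESC, 733 CPM in Htt-null ESC, 132 CPM in RA-DIFF labelled wild type and 142 CPM in RA-DIFF labelled Htt-null, or 59.2, 47.8, 8.61 and 9.26 CPM per kb of exon. Of these 8 genes, 4 passed the expression limit, and 1 was higher and 2 were lower in RA-DIFF labelled Htt-null.

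Genes next to the members were followed for transcripts that overlap them or start nearby. Tbx3os1, annotated antisense to Tbx3 and overlapping the start of that gene, had 117 counts in wild-type ESC, 51 in Htt-null ESC, 8 in RA-DIFF labelled wild type and 129 in RA-DIFF labelled Htt-null. Its order between the RA-DIFF libraries was that of Tbx3, with a log2 ratio of 4.17 beside 2.04. The noncoding gene 2610027K06Rik, whose start lies 328 bp from that of Tbx2 on the other strand, had 18, 7, 17 and 60 counts, a log2 ratio of 2.00 in RA-DIFF beside 1.44 for Tbx2. D030062O11Rik, which overlaps the start of Tbx18, had 1, 0, 3 and 17 counts, and the antisense gene ENSMUSG00000105689, inside Tbx15, had 2, 0, 19 and 3 counts. RP24-150D8.2, near Tbx5, had 0, 0, 0 and 1. The libraries were made with a strand-specific method, and the study's methods give default settings where no option is named and name no strand option for the counting. The strand setting was not tested on reads here, so reads shared by overlapping genes on opposite strands may not be told apart.

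For the 6 members with at least 100 counts in their highest library, the genes with the nearest profile over the 4 libraries were found by the Euclidean distance of centred log2 CPM among 15491 other expressed genes. With 4 libraries such likeness is loose, and 6 to 74 genes lay within a distance of 0.5 of a member. Nearest to Tbx2 were Egflam (0.089), Pcdhgc3 (0.233) and Ptprm (0.241). Nearest to Tbx3 were Mpzl2 (0.198), Ltbp2 (0.253) and Tek (0.274), and Mpzl2, an adhesion gene, had 5882, 2943, 151 and 480 counts. Nearest to Tbx4 were Klf2 (0.107), a factor of naive ESC, the pseudogene Gm13228 (0.121) and Slc44a4 (0.159). Nearest to Tbx15 were Pnoc (0.085), Zfp711 (0.110) and Ehf (0.126), and nearest to Tbx18 were Adgrg6 (0.244), Nbl1 (0.251) and Cav2 (0.260). Adgrg6, an adhesion receptor, had 165, 76, 1208 and 6370 counts. Nearest to Eomes were E130102H24Rik (0.291), 1700028E10Rik (0.319) and Tmeff1 (0.325).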

How the data were processed

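Poly-A RNA from the 4 conditions was sequenced as paired-end reads from strand-specific libraries. Per the submitters' processing notes and the paper's methods, the authors aligned reads with TopHat2 2.0.14 to GRCm38.p4, counted them per gene with HTSeq 0.6.1 and deposited raw counts that were not normalized. Samples were assigned by the labels, with 1 library per condition. No column of per-sample values was unused. From these counts, edgeR 4.0.16 gave TMM factors and log2 CPM with a prior count of 0.125. Log2 ratios were differences of these values. A gene was past the limits with an absolute log2 ratio above 0.75 and an average log2 CPM of edgeR above 0. That average is close to the log2 of the CPM averaged over the 4 libraries. No p-value is printed, since there are no replicates. The exact test of edgeR at assumed dispersions was run as an alternative rule for calls only (p below 0.05). Counting intervals (95%) are exact Poisson for levels and exact conditional binomial for ratios. PCR reads are not independent molecules, so these cover counting error only. 3 counts were taken as the limit of detection, 0.0268 to 0.046 CPM. Exon lengths came from GENCODE vM21, which held 32304 of the genes. The fold rule was tested on simulated data. The text names the 9 members, the other T-box genes, genes that overlap a member or start within 5000 bp of its start, up to 4 genes with the largest change and at least 100 counts per partner list, the 3 genes of nearest profile, and Htt. Marker genes named in the text are examples beyond this rule. The members, lists and limits were chosen with earlier results of these data known. Alternatives were other scalings, limits and an assumed dispersion, and exchanged RA-DIFF labels. The small RNA libraries were not used here.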

Additional observations from a re-analysis of the deposited data

Results flagged for a closer look

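Tbx3 differed between Htt-null and wild-type cells in opposite directions in ESC and RA-DIFF, with a log2 ratio of -0.49 in ESC and 2.04 in RA-DIFF by the labels. The difference between these ratios was not tested, since each rests on 1 library against 1. With the RA-DIFF labels exchanged the RA-DIFF ratio is -2.04, and both directions are then the same.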

How the results depend on the processing

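Exchanging the RA-DIFF labels turned the ratios of Htt-null over wild type in RA-DIFF to -1.44 for Tbx2, -2.04 for Tbx3, 1.19 for Tbx4, 0.97 for Tbx15, -2.75 for Tbx18 and 1.16 for Eomes, and the ratio of Eomes between RA-DIFF and ESC in cells labelled Htt-null to 0.0933. Among genes below the expression limit, ratios of RA-DIFF over ESC turned to 1.67 for Tbx1 and -0.0133 for Tbx5 in cells labelled wild type. In cells labelled Htt-null they turned to -2.17 for Tbx1, 0.272 for Tbx5 and -0.0881 for Tbx20. Without the expression limit, 5 genes were higher in RA-DIFF than ESC in cells labelled wild type, 3 were higher in Htt-null ESC and 5 were higher in RA-DIFF labelled Htt-null, since 2 or 3 of Tbx1, Tbx5 and Tbx20 then enter. The numbers lower rose to 3 in RA-DIFF against ESC labelled wild type, 4 labelled Htt-null and 4 between the RA-DIFF libraries. In ESC, 0 genes were lower in Htt-null cells with a fold limit of 1 and with edgeR's exact test at an assumed dispersion of 0.1 or 0.01. Between the RA-DIFF libraries, 2 were lower with a fold limit of 1 (Tbx4 and Eomes) and 2 at a dispersion of 0.01 (Tbx15 and Eomes). At a dispersion of 0.1, 2 were lower in RA-DIFF than ESC in cells labelled Htt-null and 0 were lower in RA-DIFF labelled Htt-null. When the counting interval was also required to exclude 0, an alternative chosen after seeing the data, 0 were lower in Htt-null ESC and 2 were lower in RA-DIFF labelled Htt-null. DESeq2 size factors and a prior count of 2 changed no direction or call among 36 ratios each, and library size alone moved 1 of 36, that of Tbx3 in ESC, to -0.43. Scaling moved the median of all genes by -0.0716 to 0.052 on the log2 scale. No paired analysis was possible because the groups of each comparison share only 1 replicate number. A fit of stage and line over all 4 libraries, with 1 residual degree of freedom, was not run. The depth leaves Tbx1, Tbx5 and Tbx20, and Tbx4 in RA-DIFF, with few counts.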
